A study of Mus musculus with 8 samples.

Results

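Potassium channel genes were taken as every array probe whose accession belonged to a gene with a symbol starting with Kcn, apart from 1 gene that the rule left out. The rule used names only and no measured value. It found 125 probes of 87 genes among the 41174 non-control probes of the array, of which 28223 carried the name of 1 of 19096 genes. The 87 genes comprised 85 protein-coding genes and the long noncoding RNAs Kcnq1ot1 and Kcnmb4os1. A probe counted as measured in a heart when the scanner software marked it well above background there. By this mark 45 of the 125 probes were measured in all 8 hearts, 26 in 1 to 7 hearts and 54 in no heart.

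The hearts came from wild-type (WT) embryos and from embryos with a whole-body germ-line knockout of Sirt1 (SIRT1 KO), collected at E18.5 (late in gestation, counted in days from the mating plug) from matings of heterozygous parents on chow. The strain is C57BL/6 in the labels and C57BL/6J in the study's methods. There were 4 hearts of each genotype, from embryos of both sexes, with 1 heart per array. The knockout is described as germ-line and was not limited to cardiomyocytes. The comparison asked which transcripts differed between whole hearts of both genotypes late in gestation, and none of the samples received a treatment.

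Potassium channels let potassium ions leave the cell and so end the action potential and set the resting potential. Voltage-gated (Kv) pores open on depolarization and carry the transient outward and delayed rectifier currents, inward rectifiers (Kir) hold the resting potential, and 2-pore channels give a steady leak. Calcium- and sodium-activated pores respond to ions inside the cell, and accessory subunits tune the gating and the traffic of the pores they bind. In the heart the sum of these currents is known as the repolarization reserve, and its loss lengthens the action potential.

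All log2 signals below are log2 of the processed spot intensity minus the 75th percentile of the same array, so that 0 stands for the 75th percentile, and a log2 fold change is SIRT1 KO minus WT. Between 24497 and 26737 probes per array were well above background, and no spot was saturated. Each slide carried arrays of a single genotype, and the WT slide was scanned on another day than the SIRT1 KO slide. Genotype, slide and day of scanning cannot be told apart, and a comparison within a slide was not possible. Sirt1 itself did not fall with the labels. Its probes had log2 fold changes of 0.54 (A_52_P358612, adjusted p = 0.0323) and -0.11 (A_51_P141152, adjusted p = 0.589). Where these probes lie relative to the deleted part was not given in the sources used here, and a probe outside it checks nothing. The hearts are therefore called by their labels throughout, and each direction below rests on those labels. The 7 cardiomyocyte markers (Tnnt2, Tnni3, Myh6, Actc1, Actn2, Ryr2 and Nkx2-5) were well above background in all 8 hearts and none was called.

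Promoters are shown here for called genes that were chosen by their calls: Kcnmb2 and Kcnmb4, which encode subunits of the same channel and both rose, and Kcnq1ot1, the noncoding member that rose. A joint change of the channel was not tested. The sequences are the 250 bases upstream of the annotated start in RefSeq, build GRCm38.p6, 5′ to 3′ on the strand of the gene. They lie at chr3:31902453-31902702 on the plus strand for Kcnmb2, chr10:116473524-116473773 on the minus strand for Kcnmb4 and chr7:143296548-143296797 on the minus strand for Kcnq1ot1. Capitals mark matches, on either strand, to the GC box (GGGCGG) or the CCAAT box (CCAAT).
Kcnmb2: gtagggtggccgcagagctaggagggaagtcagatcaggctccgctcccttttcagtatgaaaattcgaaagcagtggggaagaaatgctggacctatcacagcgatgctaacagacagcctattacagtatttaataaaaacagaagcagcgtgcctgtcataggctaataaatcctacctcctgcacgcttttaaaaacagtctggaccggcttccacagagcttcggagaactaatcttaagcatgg
Kcnmb4: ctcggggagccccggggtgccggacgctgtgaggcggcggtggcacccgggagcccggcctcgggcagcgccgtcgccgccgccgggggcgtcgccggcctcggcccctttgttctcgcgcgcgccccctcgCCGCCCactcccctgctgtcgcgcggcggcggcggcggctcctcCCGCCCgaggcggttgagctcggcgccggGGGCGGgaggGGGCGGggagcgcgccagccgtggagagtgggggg
Kcnq1ot1: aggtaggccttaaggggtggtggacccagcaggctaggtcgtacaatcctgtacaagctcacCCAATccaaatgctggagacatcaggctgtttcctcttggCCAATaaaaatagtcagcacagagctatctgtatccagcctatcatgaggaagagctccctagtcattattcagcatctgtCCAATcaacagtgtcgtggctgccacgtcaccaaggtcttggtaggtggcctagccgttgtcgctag
The Kcnmb4 window had 43 CG dinucleotides, 83.6% G or C and 4 GC boxes, the Kcnmb2 window 8 CG dinucleotides, 47.2% G or C and no match, and the Kcnq1ot1 window 5 CG dinucleotides, 51.2% G or C and 3 CCAAT boxes. Of all 32851 RefSeq windows of this length, 32.7% held a GC box and 33.8% a CCAAT box. Among the 87 windows found for 62 of the Kcn genes, 41 (47.1%) held a GC box and 26 (29.9%) a CCAAT box. The TATA box (TATAAA) was found in 12.4% of all windows and in 2 (2.3%) of the 87, and the GATA motif (AGATAA) in 9.99% and in 3 (3.45%). The E-box (CACGTG) was found in 6.02% of all windows and in 6 (6.9%) of the 87, and the MEF2 site in 2.92% and in 2 (2.3%). These matches are a description of the letters, and the arrays hold no measure of binding.

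**Figure D1:**
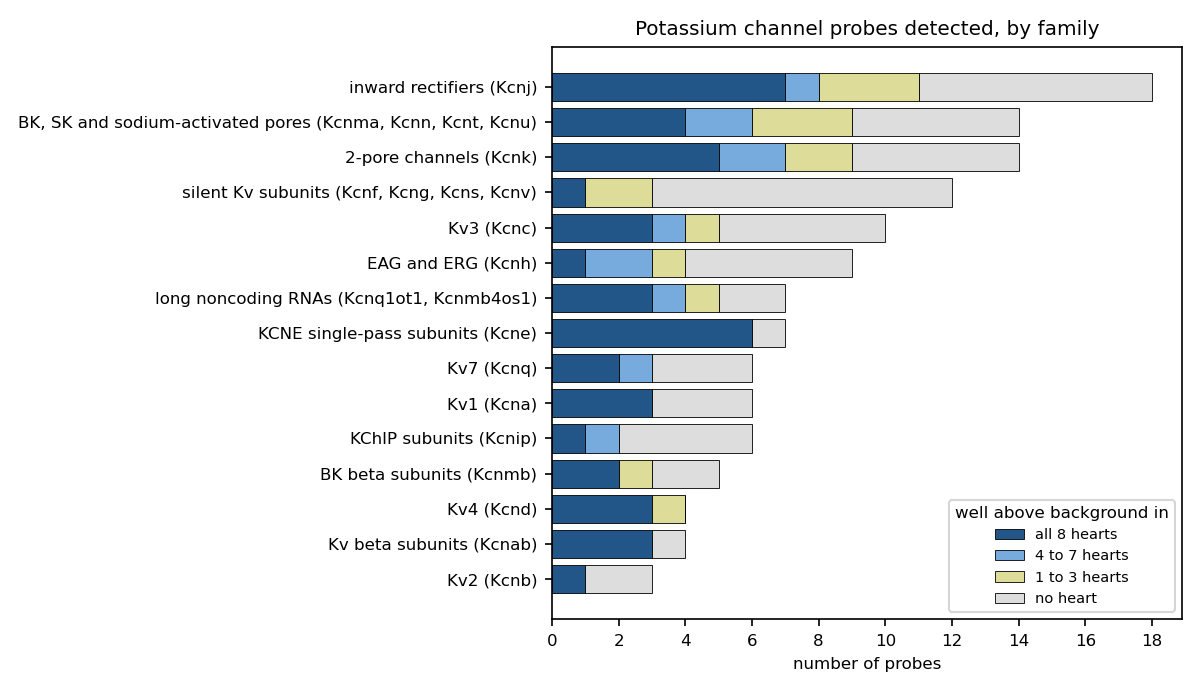
Number of potassium channel probes per family (horizontal axis), divided by the number of hearts in which the probe was well above background. Of the 125 probes, 45 were measured in all 8 hearts and 54 in none, and 9 of the 12 probes of the silent Kv subunits were measured in none.

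The calls among potassium channel probes fell on a small set of named genes. Probes well above background in at least 4 of the 8 hearts were tested, which left 56 probes of 46 genes, 45 of them measured in all 8 hearts and 11 in fewer, and 69 probes untested. With limma, 9 of the 56 passed an adjusted p of 0.05 (called), 7 of them with higher and 2 with lower signal in hearts labelled SIRT1 KO, or 16.1%, where 4.88% of all 25616 tested probes were called. By direction, 12.5% of the potassium channel probes were called higher against 3.97% of all probes, and 3.57% lower against 0.91%. This balance depended on the scaling between arrays, with 6 called higher and 5 lower when arrays were scaled to their median, and 2 higher and 10 lower without scaling. Without scaling, 21.4% of the potassium channel probes were called against 24.8% of all probes, so that the share was then no longer above that of the array. Of the same 56, 22 (39.3%) had an unadjusted p under 0.05, against 21.5% of all probes. The analysis of variance named in the methods called 1 potassium channel probe (Kcne1), or 1.79%, with 2.13% of all probes called. It gave 19 of the 56 potassium channel probes an unadjusted p under 0.05, against 5137 (20.1%) of all 25616 tested probes. That share was thus larger among the potassium channel probes.

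The called probes that were higher included Kcnq3 among the voltage-gated pores, the BK channel subunits Kcnmb2 and Kcnmb4, the 2-pore channel Kcnk9 and the noncoding Kcnq1ot1. Called lower were the accessory subunits Kcne1 and Kcnab1. In 14 probes (25%) the values of both genotypes did not overlap, against 13.7% of all tested probes, and the 14 comprised the 9 called probes and 5 others: Kcnab3, both probes of Kcnk3, Kcnh2 and 1 probe of Kcnn2. Each of the 14 reached 0.0286 in the exact two-sided permutation test over hearts, the smallest p that 4 against 4 can give. In whole hearts, fewer cells of a type and less RNA per cell cannot be told apart, here or in any value that follows.

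The 56 fold changes had a median of 0.06, beside 0.01 over all tested probes, and ran from -0.88 to 2.44, with 31 above 0 and 25 below. In 29 of them the log2 fold change was smaller than 0.25 in size. The calls were spread over the range of signal: 4 of 28 potassium channel probes were called among the 8539 tested probes of lowest mean signal (8.78% of all there), 2 of 18 among the next 8538 (4.03%) and 3 of 10 among the 8539 of highest mean signal (1.83%). In 8 genes more than 1 probe was tested, and in each of these genes the probes had fold changes of 1 sign.

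**Figure D2:**
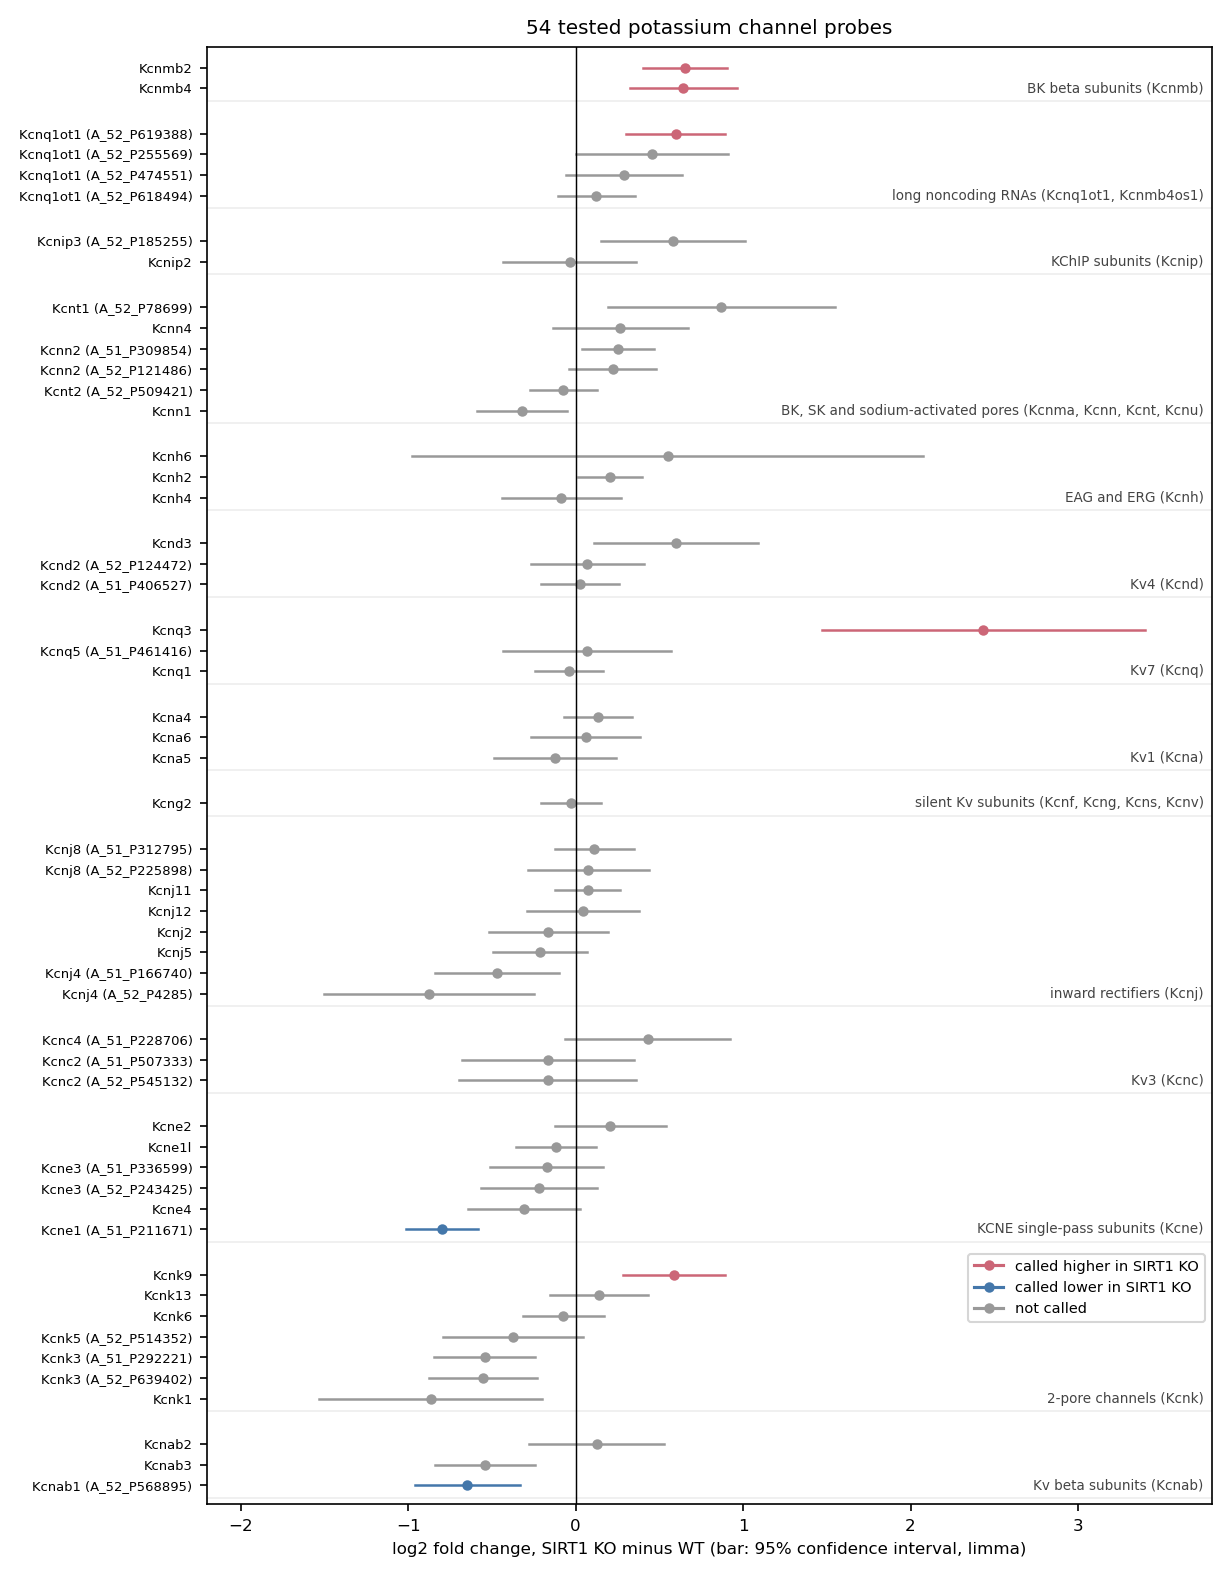
Log2 fold change, SIRT1 KO minus WT, of 54 of the 56 tested potassium channel probes (points) with its 95% confidence interval from limma (bars), grouped by family. The intervals of the 7 called probes shown lie away from 0, from Kcnq3 at 2.44 to Kcne1 at -0.80, and all 8 inward rectifier probes are grey, meaning not called.

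The voltage-gated pores were the largest class, with 50 probes of 37 genes, of which 27 probes were measured in no heart and 18 probes of 16 genes were tested. Of the 18, 3 were called higher and none lower, 12 had positive and 6 negative fold changes, and the median was 0.07.

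Kcnq3 encodes Kv7.3, a pore of the M-current of neurons, and had the largest fold change of the 56. Kcnq3 read -4.35, -4.98, -5.33 and -4.60 in the 4 WT hearts and -2.55, -1.08, -2.54 and -3.34 in those labelled SIRT1 KO. Every SIRT1 KO value lay above every WT value, and SIRT1 KO replicate 2 was the highest by more than 1 log2 unit. The signal was 5.41-fold higher, a log2 fold change of 2.44 with a standard error of 0.43 (adjusted p = 0.0148). Without WT replicate 2 it was 2.38 and no longer called (adjusted p = 0.0511), while normexp background correction gave 1.38 (adjusted p = 0.00568). The WT mean of Kcnq3, -4.81, was near the detection limit, so the size of the change depended on the background correction. For comparison, Kcnc4, with a WT mean of -5.20, was well above background in 3 of the 4 WT hearts. Of the other Kv7 genes, Kcnq5 had a log2 fold change of 0.07 (adjusted p = 0.889).

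Kv3 pores are fast delayed rectifiers of rapidly firing neurons. Of the Kv3 genes described here, none was called, with 0.43 on the log2 scale for Kcnc4 (adjusted p = 0.292) and -0.16 and -0.17 for the probes of Kcnc2.

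Beside the neuronal Kcnq3, 1 marker of Schwann cells and glia was called. Of 5 listed, 4 were well above background in all 8 hearts and 1 in none, and the summed level of the list, in multiples of the 75th percentile, was 1.68 to 2.09 in WT and 2.09 to 2.77 in SIRT1 KO. All 4 tested had positive fold changes, and Sox10 was called (0.80, adjusted p = 0.0199). The Sox10 call held in 5 of the 8 fits that omitted 1 heart, and normexp gave 0.36 (adjusted p = 0.0306). By the analysis of variance Sox10 was not called (adjusted p = 0.0797). Of 9 neuron and cardiac ganglion markers, 6 (Chrna3, Dbh, Prph, Snap25 and Th among them) were measured in no heart, none was called, and the summed level was 0.347 to 0.421 in WT and 0.321 to 0.368 in SIRT1 KO. Liver markers, of which 3 of the 4 with a probe were measured in all 8 hearts, summed to 3.39 to 11.0 in WT and 4.01 to 48.1 in SIRT1 KO, with none called. In the skeletal muscle list, Myog was called higher (0.52, adjusted p = 0.0291) and Tnnt3 was not called (-0.36). Myog was well above background in 3 WT and 4 SIRT1 KO hearts. The part of Schwann cell, glial, liver or skeletal muscle RNA in the Kcnq3 result was not tested.

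**Figure D3:**
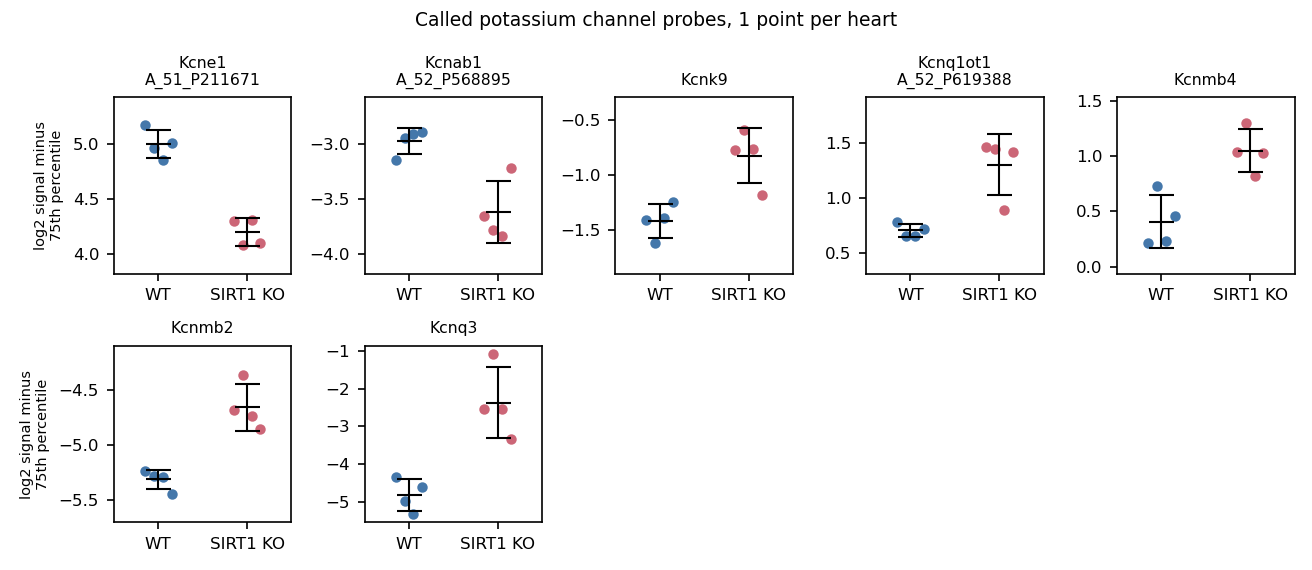
Log2 signal minus the array's 75th percentile (vertical axis, a separate scale in each panel) of 7 of the 9 called potassium channel probes in each of the 4 WT and 4 SIRT1 KO hearts (points), with mean ± SD (bars). The genotypes do not overlap in any panel, and Kcne1 and Kcnab1 are the panels in which SIRT1 KO lies below WT.

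The pores of the cardiac transient outward and delayed rectifier currents described next were not called. Kcnd2 and Kcnd3 encode Kv4.2 and Kv4.3, the fast transient outward pores. On the brighter Kcnd2 probe (A_52_P124472) the signal was -0.28 ± 0.23 (SD, n = 4) in WT and -0.21 ± 0.24 (SD, n = 4) in SIRT1 KO, a log2 fold change of 0.07 (95% confidence interval -0.27 to 0.41). The second probe gave 0.02 (interval -0.21 to 0.26). Kcnd3 read -5.22, -5.38, -5.13 and -4.68 in WT and -4.58, -4.30, -4.10 and -5.05 in SIRT1 KO. Only SIRT1 KO replicate 4 of Kcnd3 lay within the WT range, and the fold change of 0.60 (standard error 0.22) had an adjusted p of 0.158.

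Kcna4 (Kv1.4, the slow transient outward pore) had a log2 fold change of 0.13 (interval -0.07 to 0.34) and Kcna5 (Kv1.5, an ultrarapid delayed rectifier) -0.12 (interval -0.49 to 0.24). The signal of Kcna5 was 0.43 ± 0.19 (SD, n = 4) in WT and 0.31 ± 0.31 (SD, n = 4) in SIRT1 KO, with SIRT1 KO replicate 3 the lowest of all 8 hearts at -0.14. Kcna6, the third Kv1 gene measured, had 0.06.

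Kcnq1 encodes Kv7.1, the pore of the slow delayed rectifier IKs, and differed by less than the spread between hearts. Its signal was 3.20 ± 0.16 (SD, n = 4) in WT and 3.16 ± 0.05 (SD, n = 4) in SIRT1 KO, a log2 fold change of -0.04 (interval -0.24 to 0.17, adjusted p = 0.840). Kcnh2 encodes ERG1, the pore of the rapid delayed rectifier IKr, and read 0.46, 0.35, 0.58 and 0.62 in WT and 0.69, 0.64, 0.84 and 0.66 in SIRT1 KO. Its genotypes did not overlap, but the highest WT heart and the lowest SIRT1 KO heart nearly touched, and the fold change of 0.20 (interval 0.01 to 0.40) had an adjusted p of 0.208. Of the other EAG and ERG genes, Kcnh4 had -0.08 (adjusted p = 0.795) and Kcnh6 0.55, with a standard error of 0.67 that came with 1 WT heart at -7.86.

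The silent Kv subunits, which form channels only with other Kv pores, were almost unmeasured: 9 of 12 probes were above background in no heart, and 1 probe was tested. That probe, of Kcng2 (Kv6.2), read 3.58 ± 0.07 (SD, n = 4) in WT and 3.55 ± 0.10 (SD, n = 4) in SIRT1 KO. Its log2 fold change of -0.03 had an interval of -0.21 to 0.15.

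**Figure D4:**
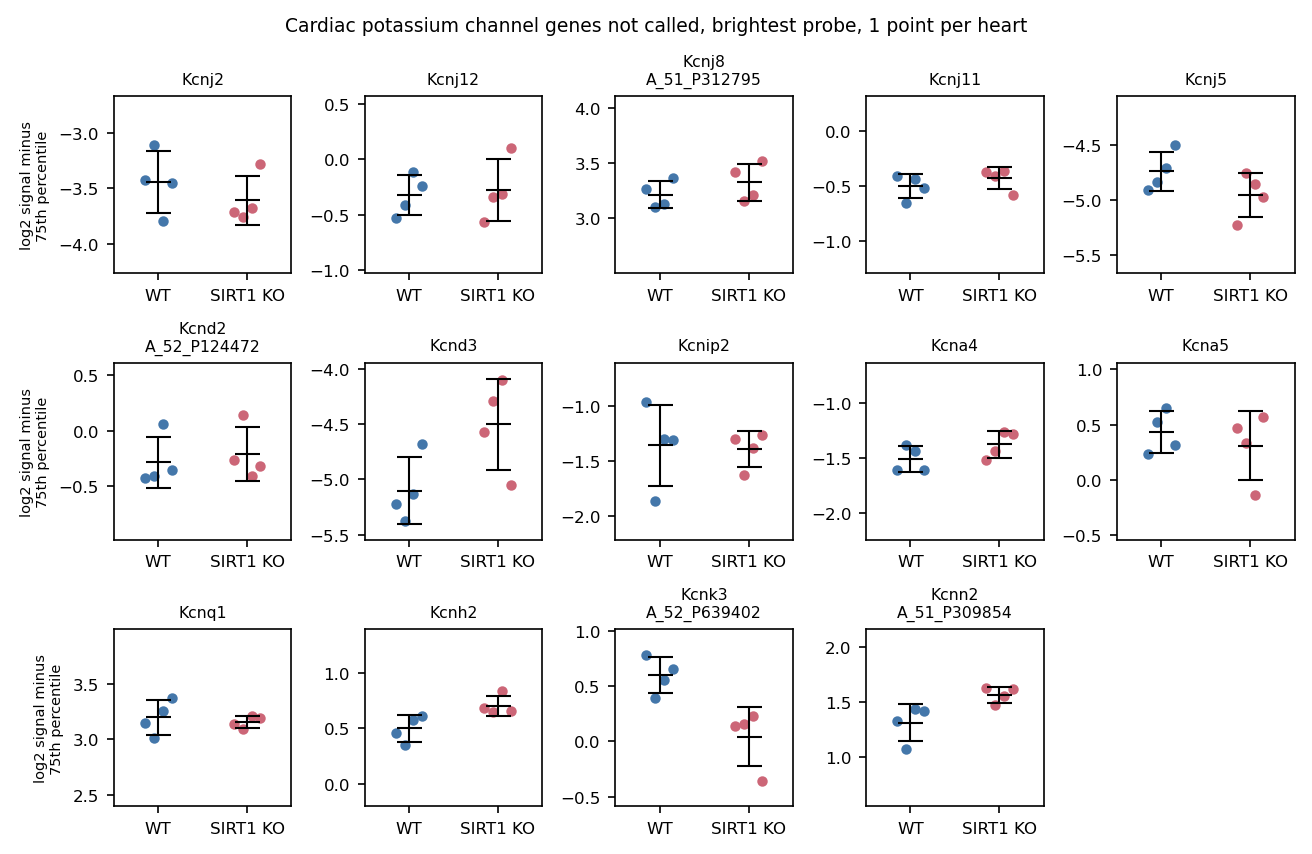
Log2 signal minus the array's 75th percentile (vertical axis, a separate range in each panel) of 14 cardiac potassium channel genes that were not called, 1 probe per gene, in each of the 4 WT and 4 SIRT1 KO hearts (points), with mean ± SD (bars). Kcnk3, Kcnh2 and Kcnn2 are the panels in which the genotypes do not overlap, and Kcnk3 is the one of them in which SIRT1 KO lies below WT.

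The accessory subunits held 22 probes of 16 genes, of which 13 probes of 12 genes were tested, and calls ran in both directions. Of the 13, 2 were called higher and 2 lower, 5 had positive and 8 negative fold changes, and the median was -0.11. Both calls upward were BK beta subunits, and the calls downward were a KCNE and a Kv beta subunit.

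Kcne1 encodes minK, the single-pass subunit that joins Kv7.1 in the IKs channel. Kcne1 (A_51_P211671) read 5.17, 4.96, 4.86 and 5.01 in WT and 4.30, 4.08, 4.32 and 4.10 in the hearts labelled SIRT1 KO. The lowest WT heart stood well above the highest SIRT1 KO heart. Signal was 1.74-fold lower, a log2 fold change of -0.80 with a standard error of 0.09 (adjusted p = 0.00309), the smallest p of all potassium channel probes. Omitting any 1 heart gave -0.84 to -0.74, called in all 8 fits, and it was the single potassium channel probe called by the analysis of variance (adjusted p = 0.0224). The second Kcne1 probe was measured in no heart.

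Atrial markers had negative fold changes too, though none was called: all 5 were well above background in all 8 hearts, all 5 had negative fold changes with a median of -0.26, and the summed level was 469.6 to 712.3 in WT and 327.2 to 699.9 in SIRT1 KO. Ventricular markers, 4 of 4 measured in all hearts and none called, summed to 603.7 to 658.2 in WT and 643.8 to 806.3 in SIRT1 KO. The part of atrial RNA in the Kcne1 result was not tested. The other KCNE genes were not called, with 0.21 for Kcne2, -0.17 and -0.22 for the probes of Kcne3, -0.31 for Kcne4 (adjusted p = 0.266) and -0.11 for Kcne1l.

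Kcnmb2 and Kcnmb4 encode beta subunits of the BK channel, a large-conductance pore opened by calcium and voltage. Kcnmb2 read -5.24, -5.28, -5.29 and -5.44 in WT and -4.68, -4.36, -4.74 and -4.85 in the hearts labelled SIRT1 KO, with a narrow WT range and no overlap. It rose by 0.65 on the log2 scale, or 1.57-fold, with a standard error of 0.11 (adjusted p = 0.0128). The call held in all 8 fits that omitted 1 heart (0.55 to 0.72), while normexp gave 0.36 (adjusted p = 0.0216). The WT level of Kcnmb2 lay close to the detection limit, so the size of the rise rests on dim spots. For comparison, a Kcnt2 probe with a WT mean of -5.39 was well above background in 3 of the 4 WT hearts. Kcnmb4 read 0.21, 0.73, 0.23 and 0.46 in WT and 1.04, 1.30, 0.82 and 1.03 in SIRT1 KO. Here WT replicate 2 came close to the lowest SIRT1 KO heart, and the rise was 0.64 on the log2 scale, or 1.56-fold, with a standard error of 0.14 (adjusted p = 0.0360).

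The Kcnmb4 call remained without SIRT1 KO replicate 3 or WT replicate 2 and ended without any one of the other 6 hearts (0.56 to 0.66, adjusted p between 0.0687 and 0.101). The pore these subunits bind, Kcnma1, was measured in no heart on any of its 3 probes. Kcnmb1, the beta subunit of vascular smooth muscle, was measured in 1 SIRT1 KO heart on 1 of 2 probes and was not tested. Smooth muscle markers (Myh11, Acta2, Cnn1 and Tagln), all measured in all hearts and none called, summed to 130.9 to 164.7 in WT and 122.9 to 178.8 in SIRT1 KO.

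Kv beta subunits bind the inner face of Kv1 pores. Kcnab1 (A_52_P568895) read -3.15, -2.95, -2.91 and -2.89 in WT and -3.65, -3.78, -3.84 and -3.21 in the hearts labelled SIRT1 KO. SIRT1 KO replicate 4 lay close to the lowest WT heart, and the signal was 1.57-fold lower, -0.65 on the log2 scale with a standard error of 0.14 (adjusted p = 0.0326). The call held without SIRT1 KO replicate 4 or WT replicate 1 and ended without any one of the other 6 hearts (-0.64 to -0.57, adjusted p between 0.0517 and 0.0929). With normexp the value was -0.24 (adjusted p = 0.104). The other Kcnab1 probe was measured in no heart.

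Kcnab3 read -3.50, -4.10, -3.92 and -4.05 in WT and -4.35, -4.37, -4.44 and -4.57 in SIRT1 KO, without overlap. Its log2 fold change of -0.54 (standard error 0.13) had an adjusted p of 0.0529 and so was not called. It was called under 7 alternatives, quantile normalization, cyclic loess and no scaling among them (-0.76 to -0.51, adjusted p between 0.0160 and 0.0486), while normexp gave -0.07 (adjusted p = 0.616). Kcnab2 had 0.13 (adjusted p = 0.720). Among the KChIP subunits, calcium sensors that bind Kv4 pores, Kcnip2 had -0.03 (interval -0.43 to 0.36) and Kcnip3 0.58 (adjusted p = 0.126).

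The inward rectifiers held 18 probes of 13 genes, of which 8 probes of 6 genes were tested, and none was called in either direction by limma at an adjusted p of 0.05 (median -0.06). Kcnj2 and Kcnj12 encode Kir2.1 and Kir2.2, which carry the resting current IK1. Kcnj2 read -3.45 ± 0.28 (SD, n = 4) in WT and -3.61 ± 0.22 (SD, n = 4) in SIRT1 KO, a log2 fold change of -0.16 (interval -0.52 to 0.19), and Kcnj12 had 0.04 (interval -0.29 to 0.38). Kcnj8 and Kcnj11 encode Kir6.1 and Kir6.2, the pores of the ATP-sensitive channel. Their fold changes were 0.11 (interval -0.13 to 0.35) and 0.08 for the probes of Kcnj8 and 0.07 (interval -0.12 to 0.26) for Kcnj11. Kcnj5 (Kir3.4), a subunit of the acetylcholine-gated atrial channel, had -0.21 (interval -0.49 to 0.07), and was called without scaling between arrays (-0.43, adjusted p = 0.0295).

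Kcnj4 (Kir2.3) had the most negative fold changes of the class, on both of its probes. On A_51_P166740 the WT hearts read 1.24, 0.83, 0.88 and 1.19 and the SIRT1 KO hearts 0.99, 0.59, 0.27 and 0.42, so that SIRT1 KO replicate 1 lay within the WT range. The log2 fold changes were -0.47 (standard error 0.16, adjusted p = 0.146) and, on A_52_P4285, -0.88 (standard error 0.28, adjusted p = 0.117), neither past the threshold. With normexp the first was -0.45 and called (adjusted p = 0.0473), and the second was -0.16. The inward rectifiers with no tested probe included Kcnj6, Kcnj9 and Kcnj14, each measured in 1 to 3 hearts.

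The 2-pore leak channels held 14 probes of 11 genes, of which 7 probes of 6 genes were tested, with 1 called higher, none lower, 5 of 7 fold changes negative and a median of -0.37, the value of Kcnk5, which was 0.19 with normexp. Their closely related members Kcnk3 (TASK-1) and Kcnk9 (TASK-3), which are acid-sensitive, had fold changes of opposite sign, and the difference between them was not tested. Kcnk9 read -1.41, -1.62, -1.39 and -1.25 in WT and -0.77, -0.59, -0.77 and -1.18 in the hearts labelled SIRT1 KO, where replicate 4 came close to the highest WT heart. Kcnk9 rose 1.5-fold, by 0.59 on the log2 scale with a standard error of 0.13 (adjusted p = 0.0411). The Kcnk9 call remained without SIRT1 KO replicate 4 and ended without any one of the other 7 hearts (0.51 to 0.64, adjusted p between 0.0586 and 0.109). It also ended with quantile normalization (adjusted p = 0.0582), cyclic loess (0.0533), median scaling (0.0642), no scaling (0.0782) and no filter on dim probes (0.0822), at log2 fold changes of 0.37 to 0.59.

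Kcnk3, a background channel of cardiomyocytes and of pulmonary artery muscle, read 0.78, 0.39, 0.56 and 0.65 in WT and 0.14, 0.16, 0.23 and -0.36 in SIRT1 KO on its brighter probe (A_52_P639402). On the other probe (A_51_P292221) the values were -0.41, -0.62, -0.49 and -0.34 in WT and -0.80, -0.94, -0.90 and -1.40 in SIRT1 KO. The genotypes did not overlap on either probe, and SIRT1 KO replicate 4 was the lowest on both. The log2 fold changes were -0.55 (standard error 0.14, adjusted p = 0.0623) and -0.54 (standard error 0.13, adjusted p = 0.0546), so that neither was called. When probes measured in all 8 hearts were tested alone, both passed (adjusted p = 0.0472 and 0.0409), and so did both with normexp (adjusted p = 0.0363 and 0.0178).

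Of the remaining 2-pore channels, Kcnk1 (TWIK-1) was measured in all 4 WT hearts, at -5.25 ± 0.32 (SD, n = 4), but in 1 of the SIRT1 KO hearts, so that its SIRT1 KO level rests mostly on spots not well above background. It was not called, and with normexp its log2 fold change was -0.04 (adjusted p = 0.858). Kcnk5 had -0.37 (adjusted p = 0.282), Kcnk6 -0.07 and Kcnk13 0.14. Kcnk2 (TREK-1), a stretch-sensitive channel of cardiomyocytes, was measured in no WT heart and in 2 of the SIRT1 KO hearts and was not tested.

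The calcium- and sodium-activated pores held 14 probes of 8 genes, of which 6 probes of 5 genes were tested, and none was called (median 0.24). Kcnn2 encodes SK2, a small-conductance channel of atrial myocytes and pacemaker cells. Kcnn2 (A_51_P309854) read 1.33, 1.07, 1.44 and 1.42 in WT and 1.63, 1.47, 1.55 and 1.61 in SIRT1 KO, with no overlap but a lowest SIRT1 KO heart just above the highest WT heart. A log2 fold change of 0.25 (standard error 0.09) had an adjusted p of 0.171, and the second probe gave 0.22 (adjusted p = 0.304). Kcnn1 had -0.32 (adjusted p = 0.168), Kcnn4 0.27 (adjusted p = 0.417) and Kcnt1, a sodium-activated pore measured in 2 WT and 3 SIRT1 KO hearts, 0.87 (standard error 0.30, adjusted p = 0.141). Kcnt1 was called with normexp (0.51, adjusted p = 0.0102) and without SIRT1 KO replicate 3.

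Kcnq1ot1 is the noncoding RNA transcribed antisense to Kcnq1 from the paternal allele and known for silencing neighbouring genes in cis. It had 6 probes, of which 4 were tested, all 4 with positive fold changes and 1 called. Kcnq1ot1 (A_52_P619388) read 0.79, 0.66, 0.66 and 0.73 in WT and 1.46, 1.45, 0.89 and 1.42 in the hearts labelled SIRT1 KO. The SIRT1 KO hearts all lay above the narrow WT range, with replicate 3 well below the other SIRT1 KO hearts. The rise was 1.51-fold, or 0.60 on the log2 scale with a standard error of 0.13 (adjusted p = 0.0350).

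The Kcnq1ot1 call remained without SIRT1 KO replicate 3 and ended without any one of the other 7 hearts (0.54 to 0.62, adjusted p between 0.0669 and 0.0965). The other tested Kcnq1ot1 probes gave 0.46 (adjusted p = 0.229), 0.29 (adjusted p = 0.312) and 0.12 (adjusted p = 0.512), so the probes shared a sign and differed in size. Which strand each probe reads was not given in the sources used here, and the signals of a gene and of its antisense partner can be told apart only by strand. Kcnq1, on the other strand, had the log2 fold change of -0.04 given above. Kcnmb4os1, with 1 probe, was measured in no heart.

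Genes that work with potassium channels but carry other symbols were followed as a list of 35 genes, all with a probe, of which 43 of 56 probes (28 genes) were tested. Of the 43, 2 were called higher and none lower, or 4.65%, against 4.88% of all tested probes, with 19 positive and 24 negative fold changes and a median of -0.04. Hcn3, a channel of the pacemaker current family, read -4.75, -5.04, -5.04 and -4.83 in WT and -4.01, -4.26, -4.53 and -4.10 in SIRT1 KO and rose by 0.69 (standard error 0.13, adjusted p = 0.0170). Atp1b2, a beta subunit of the sodium pump, rose by 0.52 (standard error 0.11, adjusted p = 0.0353). Both were without overlap between genotypes. When hearts were omitted 1 at a time, the Hcn3 call held in 6 and the Atp1b2 call in 2 of 8 fits.

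The partner genes described next were not called. Hcn4, the main pacemaker channel of the sinus node, had 0.42 (interval -0.09 to 0.93, adjusted p = 0.323), and was called with normexp (0.33, adjusted p = 0.0227). Abcc9, the sulfonylurea receptor of cardiac ATP-sensitive channels, had 0.01 on its brightest probe (interval -0.25 to 0.27) and -0.05 and -0.24 on the others. Dpp6, a Kv4 partner, had 0.08, and Akap9, which anchors kinases at the IKs channel, -0.14 (interval -0.31 to 0.03).

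**Figure D5:**
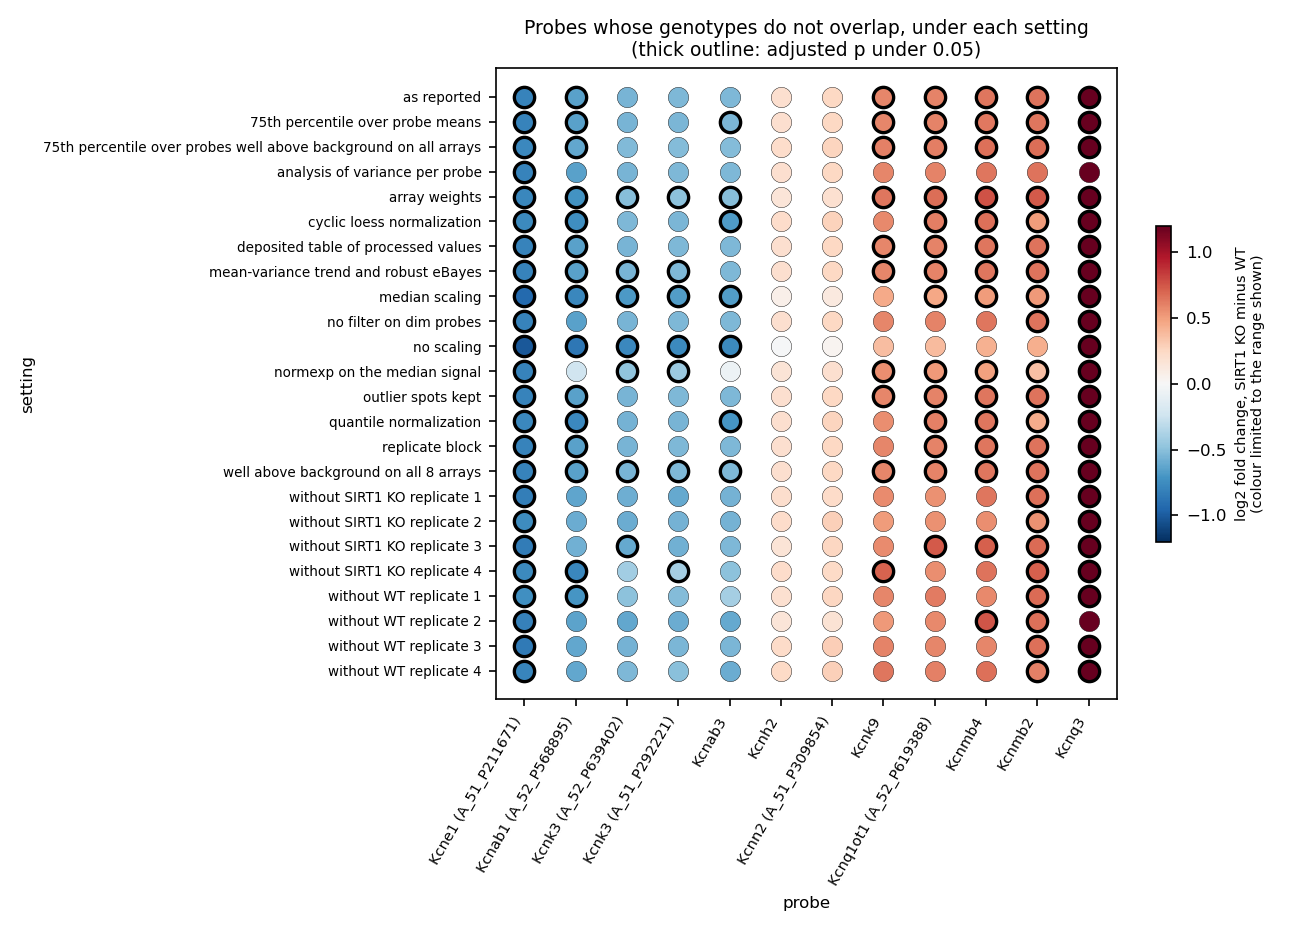
Log2 fold change, SIRT1 KO minus WT (colour, red higher and blue lower, limited to the range of the scale), of 12 of the 14 potassium channel probes whose genotypes do not overlap (columns) under each processing setting or with 1 heart left out (rows), where a thick outline marks an adjusted p under 0.05. Kcne1 is outlined in every row, while Kcnk9, Kcnmb4, Kcnq1ot1 and Kcnab1 lose the outline in most rows that leave out 1 heart.

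The calls thus fell into those that held with any 1 heart left out (Kcne1 and Kcnmb2), those that depended on 1 or 2 hearts (Kcnq3 among them) and those that 6 or 7 of the 8 omissions ended (Kcnmb4, Kcnab1, Kcnk9 and Kcnq1ot1). Without scaling between arrays the median of all tested probes moved from 0.01 to -0.21, and 4 of the 9 calls remained, those of Kcnq3, Kcne1 and Kcnab1 among them. The genes that gained a call there, all with lower signal in SIRT1 KO, were Kcnab3, Kcnj4, Kcnj5, Kcnk1, Kcnk3 and Kcnn1. With no filter on dim probes the calls of Kcnmb4, Kcnab1 and Kcnq1ot1 ended too (adjusted p between 0.0679 and 0.0733).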

How the data were processed

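RNA of 8 E18.5 hearts (4 WT and 4 SIRT1 KO), 500 ng each, was labelled with Cy3 and hybridized to one-color Agilent mouse arrays (design 014868). The authors deposited each array's spot intensity from Agilent Feature Extraction, background-subtracted and unscaled between arrays. The headers give version 12.0.0.7 and the study's methods an older one. A deposited table of processed values equals these intensities in 100% of spots.

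The processed signals of non-control spots were put on a log2 scale and centred on the 75th percentile of their array, and the mean over a probe's spots, without outliers, was used. Accessions were matched without versions to RefSeq names (GRCm38.p6), which named 28223 of 41174 probes; some genes are not reported here by name, although counts over all potassium channel probes and the marker lists include those measured and tested. A probe was tested if 4 or more of the 8 arrays were well above background (25616 over the whole array), with limma 3.58.1 in R 4.3.3, with Benjamini-Hochberg adjustment at 0.05, and single probes with the exact two-sided permutation test. This filter passes a probe measured in 1 genotype alone. Files were read in Python 3.11.15 (pandas 2.3.3, numpy 2.4.6) and plotted with matplotlib 3.10.9.

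On simulated arrays (25535 probes, 200 changed by a log2 fold change of 1) the fit found 83% of the changed probes, none with the wrong sign, and 6.74% of the probes it called were unchanged. The simulation had independent noise, no slide effect and a change larger than that of most called potassium channel probes. Its rates therefore do not carry over to the calls above. The number of arrays limits the precision. Nothing says that the hearts came from separate litters, so p-values measure the spread between these hearts. The analysis of variance of the study's methods was an alternative here, with genotype as its factor. Normexp on the mean signal was planned and not run, since the files used here hold the median signal, on which it was run with an offset of 50.

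The members, the partner and marker lists and the tests were chosen with earlier results of these data known. Genes were named when a probe was called, when the genotypes of a tested probe did not overlap, or when they stood on a list of 20 genes of cardiac, vascular and conduction currents. A gene with several probes is described by its brightest, with the others beside it. Other genes are given as context of their family and were chosen after their values were seen.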

Additional observations from a re-analysis of the deposited data

Results flagged for a closer look

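In 25 probes of the named genes each genotype was searched for 1 heart far from the other 3, by the gap to its nearest neighbour over the range of the group (Dixon's criterion at 95%). This held in 3 of 50 groups, where chance gives about 2.5. On Kcnq1ot1 (A_52_P619388), SIRT1 KO replicate 3 read 0.89 while the other SIRT1 KO hearts read 1.46, 1.45 and 1.42, and it still lay above all WT hearts. On Kcnk3 (A_52_P639402), SIRT1 KO replicate 4 read -0.36, below the other SIRT1 KO hearts at 0.14, 0.16 and 0.23. On Kcnd2 (A_52_P124472), WT replicate 3 read 0.060, above the other WT hearts at -0.43, -0.41 and -0.35.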

How the results depend on the processing

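Of the values of the 25 named probes under the alternatives, 478 kept their sign and their side of the threshold, 54 kept the sign but lost the call, 22 gained one and 21 changed sign, none of these 21 in a called probe. The analysis of variance called 1 potassium channel probe, 0 higher and 1 lower, with 546 of all probes and 0 partner probes called. With no filter on dim probes, 5 potassium channel probes (4%) were called, 4 higher and 1 lower, against 2.41% of all probes. Without scaling, 2 were called higher and 10 lower, with 6347 of all probes and 13 partner probes called, and with median scaling 5 were called lower, with 1904 of all probes and 4 partner probes; 10% and 35.5% of all calls were then higher, against 81.4% with the 75th percentile, 63.9% with quantile normalization and 70.3% with cyclic loess. Median scaling moved the median of all tested probes to -0.12. Array weights gave 8 potassium channel probes called higher and 5 lower (23.2%, against 8.89% or 2277 of all probes), a mean-variance trend with robust estimation 7 and 4 (19.6% against 5.65%), the filter on all 8 arrays 7 and 5 (26.7% against 5.05%), and an adjusted p of 0.10 gave 7 and 5 (21.4% against 8.88%, or 2275 of all probes, with 4 partner probes). Normexp on the median signal, chosen after seeing the data, gave 8 and 4 (21.4% against 9.90%, or 2535 of all probes, with 5 partner probes). The cause of these differences was not tested, and the stricter filter also left fewer probes to test. The 75th percentile over probe means, also chosen after seeing the data, called 10 potassium channel probes, Kcnab3 among them.

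With 1 heart left out, between 4 and 9 potassium channel probes were called, 3 to 7 higher and 1 to 3 lower, with 657 to 1825 of all probes and 0 to 2 partner probes. The median fold change of the tested potassium channel probes ran from -0.0024 to 0.072 in these fits, and was -0.069 with median scaling, -0.16 without scaling, -0.012 with quantile normalization and -0.0019 with cyclic loess. With the replicate number as a block, 9 potassium channel probes were called (16.1%, against 4.63% of all probes), with Kcnk9 lost (adjusted p = 0.0922), Kcnip3 gained (adjusted p = 0.0402) and the other 8 kept. Deviations of hearts with the same number correlated at 0.31, 0.29, 0.08 and 0.27; with 1 of these under 0.1 the numbers were not taken as pairing the hearts, although each heart correlated best with its own number, a hint from the data and not the design.

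Fold changes of uncalled probes changed sign as follows. With median scaling they were -0.00016 for Kcna4, -0.062 for Kcnd2, -0.061 for Kcnj11, -0.089 for Kcnj12 and -0.022 for Kcnj8. Without scaling they were -0.087 for Kcna4, -0.15 for Kcnd2, -0.015 for Kcnh2, -0.15 for Kcnj11, -0.18 for Kcnj12 and -0.11 for Kcnj8. Normexp gave 0.013 for Kcnip2 and 0.13 for Kcnj5, and array weights -0.071 for Kcnj12. Leaving out 1 heart gave ranges that crossed 0, from -0.21 to 0.026 for Kcna5 (positive without SIRT1 KO replicate 3), -0.047 to 0.19 for Kcnd2 (negative without SIRT1 KO replicate 2), -0.20 to 0.097 for Kcnip2 (positive without SIRT1 KO replicate 2, at 0.045, or WT replicate 1), -0.083 to 0.14 for Kcnj12 (negative without SIRT1 KO replicate 4 or, at -0.024, WT replicate 1) and -0.10 to 0.021 for Kcnq1 (positive without WT replicate 4). Low signal limits the rest: 69 of 125 potassium channel probes were too dim to test.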
